A study of Mus musculus with 2 samples.

Results

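The cells described here are fibroblasts of mouse skin wounds that scored highest for 7 genes: Coch, Wif1, Igfbp2, Grem1, Robo2, Lamc3 and Col11a1. Cells were kept with at least 500 UMIs (unique molecular identifiers, each standing for 1 captured RNA molecule), at least 200 genes and less than 15% mitochondrial UMIs. A kept cell entered the fibroblast gate if Col1a1, Col1a2 and Col3a1 gave at least 1% of its UMIs and the myeloid genes Lyz2, Tyrobp and Fcer1g less than 0.1%. Each gated cell was scored by the mean of ln(1 + UMIs per 10000) over the 7 genes, and the top 5% over both libraries were the members. They numbered 142 of 2834 gated cells and of 8871 kept cells. The other 2692 gated cells are called other gated cells below.

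The study took full-thickness dorsal skin wounds of 10 mm from wild-type male C57BL/6 mice at day 6 after wounding, 1 group aged 2 months (young) and 1 group aged 24 months (aged). Tissue from several mice was pooled into 1 suspension per age, and each age gave 1 droplet library with 3' tags. Age, the pooled animals and the preparation of the library therefore cannot be told apart, no test between ages was possible, and no p-value is given. Every interval below is a 95% interval of counting error only. The members were chosen by expression in these cells, so their differences from the other gated cells are a description.

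The hair follicle holds 2 mesenchymal compartments: the dermal papilla, a condensation of fibroblasts at its base that signals to the follicle epithelium, and the dermal sheath, a contractile cup around it. Both depend on Wnt and hedgehog signals from the epithelium and hold Wnt, BMP and FGF regulators. Of the 7 genes, Coch encodes cochlin, an extracellular matrix protein, Wif1 a secreted inhibitor that binds Wnt proteins, and Igfbp2 a carrier of insulin-like growth factors. Grem1 encodes a secreted BMP antagonist, Robo2 a receptor for Slit guidance proteins, Lamc3 a laminin chain and Col11a1 a chain of fibril-forming collagen XI.

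The starts of 4 of these genes are shown because Coch, Wif1, Igfbp2 and Grem1 separate the members from one another in the results that follow. Each window runs from 250 bases before to 50 bases after the RefSeq start, 5' to 3' on the gene's strand, with RefSeq sequence on build GRCm38.p6. Capitals mark a TCF/LEF core, the letters bound by the Wnt pathway's transcription factors, searched as CTTTGA or CTTTGT on both strands. Coch lies on the plus strand at chr12:51593091-51593390, Wif1 on plus at chr10:121033754-121034053, Igfbp2 on plus at chr1:72824230-72824529 and Grem1 on minus at chr2:113758599-113758898.
Coch: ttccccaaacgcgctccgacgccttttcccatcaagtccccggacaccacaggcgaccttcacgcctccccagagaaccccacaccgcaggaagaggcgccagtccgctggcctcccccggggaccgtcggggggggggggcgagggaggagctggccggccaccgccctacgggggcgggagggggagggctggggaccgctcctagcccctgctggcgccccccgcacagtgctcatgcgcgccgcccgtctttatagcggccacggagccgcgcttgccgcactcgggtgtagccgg
Wif1: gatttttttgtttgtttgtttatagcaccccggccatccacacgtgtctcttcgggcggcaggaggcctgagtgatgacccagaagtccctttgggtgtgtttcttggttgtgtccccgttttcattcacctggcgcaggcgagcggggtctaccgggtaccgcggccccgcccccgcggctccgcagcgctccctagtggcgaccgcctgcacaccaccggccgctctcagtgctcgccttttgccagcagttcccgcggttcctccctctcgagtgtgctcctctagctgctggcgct
Igfbp2: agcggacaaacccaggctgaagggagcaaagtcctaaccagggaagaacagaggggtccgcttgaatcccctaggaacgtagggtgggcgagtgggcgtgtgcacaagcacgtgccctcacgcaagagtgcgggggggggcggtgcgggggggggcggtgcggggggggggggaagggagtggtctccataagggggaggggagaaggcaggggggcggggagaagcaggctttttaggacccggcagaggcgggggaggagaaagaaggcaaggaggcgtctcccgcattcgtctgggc
Grem1: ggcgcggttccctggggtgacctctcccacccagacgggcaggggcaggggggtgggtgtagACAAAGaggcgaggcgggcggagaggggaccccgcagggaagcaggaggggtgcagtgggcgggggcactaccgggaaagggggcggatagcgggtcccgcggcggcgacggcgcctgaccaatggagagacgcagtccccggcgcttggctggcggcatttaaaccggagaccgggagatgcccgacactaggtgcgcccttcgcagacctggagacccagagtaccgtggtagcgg
Of the 6 rule genes with a window, Grem1 alone held a TCF/LEF core, read here from the other strand. Of all 27025 windows listed by RefSeq, 31.3% held one, and the share was 25.2% of the 473 matched genes among those at least 2-fold higher in members and 30.5% of the 410 matched among those at least 2-fold lower. The SOX core ACAAT stood in no window of the 6 rule genes, in 31.6% of all windows, in 18.0% of those of the higher genes and in 26.1% of those of the lower genes. A match is a description of letters in this window.

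Library depth was close at both ages. The young library held 4932 barcodes and 111810068 UMIs and the aged library 4379 barcodes and 107865898 UMIs. Members had a median of 36641 UMIs in the young library (range 509 to 118380) and 40090 in the aged library (range 2856 to 136870), against 43166 and 50821 in other gated cells. Their median mitochondrial share was 1.42% and 1.17%, against 1.26% and 1.07%. The 2 libraries shared 3 barcodes, none of them a member. Some barcodes of 1 library held near-identical counts; counted once, the young members fell from 117 to 112, with up to 5 barcodes in 1 such group, and the aged members stayed at 25. Chosen anew among barcodes counted once, the members numbered 113 young and 27 aged.

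The young library supplied 117 of the 142 members and the aged library 25. Members were 7.95% of young gated cells (95% Clopper-Pearson interval 6.62 to 9.45) and 1.84% of aged gated cells (1.19 to 2.70), an aged/young ratio of 0.231 (0.144 to 0.358). The share was the lower in the aged library with the top 2.5% or the top 10% as members, with other collagen limits, after thinning and with each rule gene left out, and the ratio ran from 0.118 for the top 2.5% to 0.426 for the top 10%. Taking the top 5% within each library fixes equal shares and gave 0.993. Scores ran from 0.197 over a median of 0.476 to 1.82 in young members and from 0.197 over 0.314 to 0.951 in aged members. The lowest members scored 0.197, 0.197, 0.197, 0.201 and 0.202, and the highest cells left out 0.191, 0.189, 0.187, 0.184 and 0.184. Among other gated cells, 86.9% of young and 90.4% of aged cells had no UMI of any of the 7 genes.

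**Figure D1:**
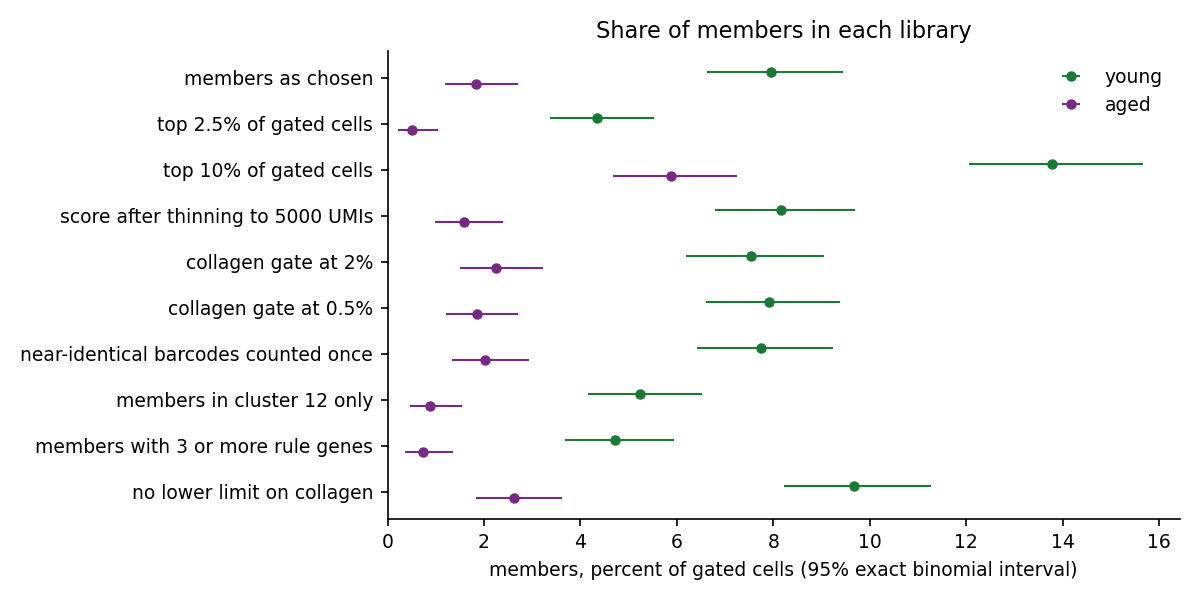
Members as a percent of gated cells (x axis) in the young (green) and aged (purple) library under 10 ways of choosing them (rows); points are shares and lines 95% exact binomial intervals. The chosen set sits at 7.95% young and 1.84% aged, and the young share is the higher in each row drawn.

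The 7 genes did not form 1 shared pattern over the members. Young members had a median of 3 of the 7 genes detected, and 67 of 117 (57.3%) had at least 3. Aged members had a median of 2, and 10 of 25 (40%) had at least 3. A single gene carried the membership of 15 young and 9 aged cells. No member had all 7.

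Coch, the matrix protein, was found in young members only. It gave 1349 UMIs in 35 of 117 young members, 294 UMIs per 1000000 (CPM; 279 to 310), and 1 cell held 36% of them. The 25 aged members held no Coch UMI. Set at a bound of 3 UMIs (2.47 CPM), the level was 119-fold lower, while the 95% interval reaches 3.04 CPM. The aged library was not without Coch: 5 UMIs stood in its other gated cells and 51 in 10 of the 13 aged cells described below that scored as high outside the gate. After thinning each cell to 5000 UMIs, Coch was in 20% of 110 young members and in none of 24 aged members. For the aged share a bound of 3 cells gives 12.5%, and the 95% interval reaches 14.2%.

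Wif1, the Wnt inhibitor, gave 386 UMIs in 19 young members (84.2 CPM) and 7 UMIs in 3 aged members (5.77 CPM). Lamc3, the laminin chain, gave 132 UMIs in 40 young members (28.8 CPM) and 8 in 5 aged members (6.59 CPM). Both were near 0 in other gated cells, at most 0.473 CPM in either library. The order of the ages depended on the collagen limit. With that limit dropped, which adds 28 young and 11 aged cells to the members, Wif1 stood at 127 CPM in young and 345 CPM in aged cells and Lamc3 at 49.5 and 172 CPM, while Coch stayed the lower in the aged library, at 306 and 23.9 CPM. Robo2, the Slit receptor, was the most widely detected of the 7, in 88 young members (240 CPM) and 17 aged members (106 CPM).

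Igfbp2, the growth factor carrier, was concentrated in few cells. It gave 3794 UMIs in 43 young members (828 CPM), with 28% in 1 cell, and 167 UMIs in 8 aged members (138 CPM), with 76% in 1 cell. Grem1, the BMP antagonist, and Col11a1 differed least between the libraries in CPM over all members. Grem1 gave 2347 UMIs in 77 of 117 young members (512 CPM) and 502 UMIs in 16 of 25 aged members (414 CPM). After thinning it was in 51.8% of young and 50% of aged members. Col11a1 gave 154 CPM in 46 young and 144 CPM in 8 aged members. Of its aged UMIs 36.6% were in 1 cell and 73.1% in 3 cells. In the cluster described below that held most members, Col11a1 stood at 192 CPM in young members and at no UMI in aged members. In myeloid-gated cells, which should lack these genes and had median depths of 17165 and 14028 UMIs, each of the 7 was in at most 1.04% of cells.

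**Figure D2:**
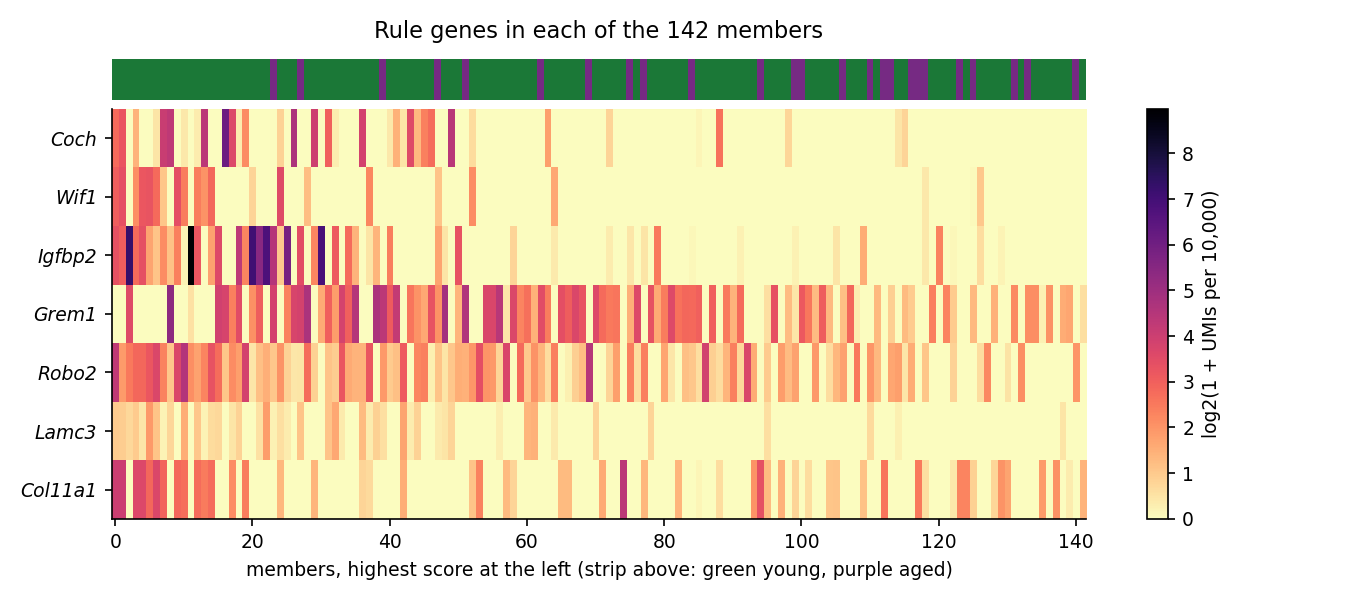
The 7 rule genes (rows) in each of the 142 members (columns, highest score at the left), coloured by log2(1 + UMIs per 10000); the strip marks young (green) and aged (purple) cells. Grem1 is largely blank in the cells at the left where Wif1 and Col11a1 are dark, and Coch is blank in all purple columns.

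Wif1 and Grem1 marked largely different young members. Of the 19 young members with Wif1, 19 also had Robo2, 16 Igfbp2 and 15 Col11a1, but 2 had Grem1, a gene found in 77 of 117 young members. Of the 3 aged members with Wif1, 2 had Grem1. Of the 35 with Coch, 34 had Robo2, 18 Grem1 and 10 Wif1. This split the young members into 25 with Coch alone of the pair Coch and Wif1, 10 with both, 9 with Wif1 alone and 73 with neither. Among aged members 3 had Wif1 alone and 22 neither. These subsets were drawn after their values were seen and hold few cells. The score that chose the members was a mean over the rule genes, so a member low in some of them had to be high in others. Such a choice can by itself set rule genes apart among members. Its part in the split between Wif1 and Grem1, and in the rule-gene levels of these subsets, was not tested.

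The 10 young members with both genes held matrix and hedgehog-pathway transcripts and no Grem1. Col11a1 stood at 798 CPM in them, against 35.1 CPM in the 25 members with Coch alone, and Robo2 at 804 against 153 CPM. Tnn, encoding tenascin-W, stood at 1277 CPM against 5.01, and Acan, encoding aggrecan, at 115 CPM against no UMI. Ptch1, the hedgehog receptor and a hedgehog target, stood at 156 against 10.0 CPM, and the hedgehog transcription factor Gli1 at 71.5 against 6.02 CPM. Tnmd, encoding tenomodulin, stood at 375 against 114 CPM.

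The 25 members with Coch alone held the reverse set. Grem1 stood at 803 CPM in them and at no UMI in the 10 with both, and Crabp1, a retinoic acid carrier, at 1840 CPM against no UMI. The smooth muscle actin gene Acta2 stood at 7.02 CPM in members with Coch alone and at 325 CPM in members with both. Axin2, a feedback inhibitor and common readout of Wnt signalling, stood at 31.1 CPM against no UMI. Cdkn2a stood at 188 CPM against 71.5.

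Clustering all gated cells without the 7 rule genes placed most members together. Of 20 clusters, cluster 12 held 102 cells, of which 87 (85.3%) were members, and these were 61.3% of all members. Its members were 75 of 117 young (64.1%) and 12 of 25 aged (48%). Cluster 1, led by Prss35, Mest, C1qtnf3 and Ptn, held a further 24 members, 17 young and 7 aged, among 288 cells. The other 31 members, 25 young and 6 aged, lay in other clusters.

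Members in the clusters differed in which rule genes they held. In cluster 12 the young members had Coch at 501 CPM, Igfbp2 at 1498 CPM and Wfdc12 at 403 CPM, while the 17 young members of cluster 1 had Coch at 2.20 CPM, Igfbp2 at 82.4 CPM and no Wfdc12 UMI. Grem1 was in both, at 574 and 467 CPM. In the aged library the 12 members of cluster 12 held no Col11a1 UMI, and the 7 members of cluster 1 held it at 360 CPM. A myofibroblast score over Acta2, Crabp1, Prss35 and Tagln overlapped with the members: 34 of 142 were also in its top 5%, which is 41.8% of the 67 young cells of that set and 8% of its 75 aged cells. No member was in the top 5% of an adventitial score over Pi16, Dpp4, Ly6c1 and Clec3b.

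Among markers of the dermal papilla, Corin, Sox2, Alx4, Hhip and Lef1 were at or near 0 in the members. Corin gave 7 UMIs in 3 young members and none in aged members, Sox2 gave 2 and 0 UMIs, Alx4 11 and 1, Hhip 16 and 0, and Lef1 5 and 5. In CPM the highest of these were Hhip at 3.49 in young and Lef1 at 4.12 in aged members. The median number of the 23 papilla-list genes detected per cell was 5 in young and 4 in aged members and 4 in other gated cells of each library. Of the 11 genes of that list measured against other gated cells, 3 (Bmp4, Trps1 and Prdm1) were higher in members and 1 lower, as given below. With the list mixed, the members are named by their rule and not called papilla cells here.

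Cells with those papilla markers did exist in both libraries, outside the gate. Of all kept cells outside it, 32 young and 13 aged cells scored at least as high as the lowest member, and 30 and 12 of them had failed the collagen limit. Their median collagen share was 0.313% and 0.176%, against 4.10% and 7.04% in members. In young and aged cells of this kind Corin stood at 61.2 and 318 CPM, Hhip at 51.1 and 222 CPM, and Lef1 at 168 and 318 CPM. Corin was in 7 of the young and 10 of the aged cells, or in 6 and 6 with near-identical barcodes counted once. Wif1 stood there at 313 and 799 CPM and Lamc3 at 135 and 364 CPM, above their levels in members. Grem1 and Igfbp2 were lower there than in members, at 172 and 90.5 CPM in the young cells and at no UMI and 12.4 CPM in the aged cells.

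**Figure D3:**
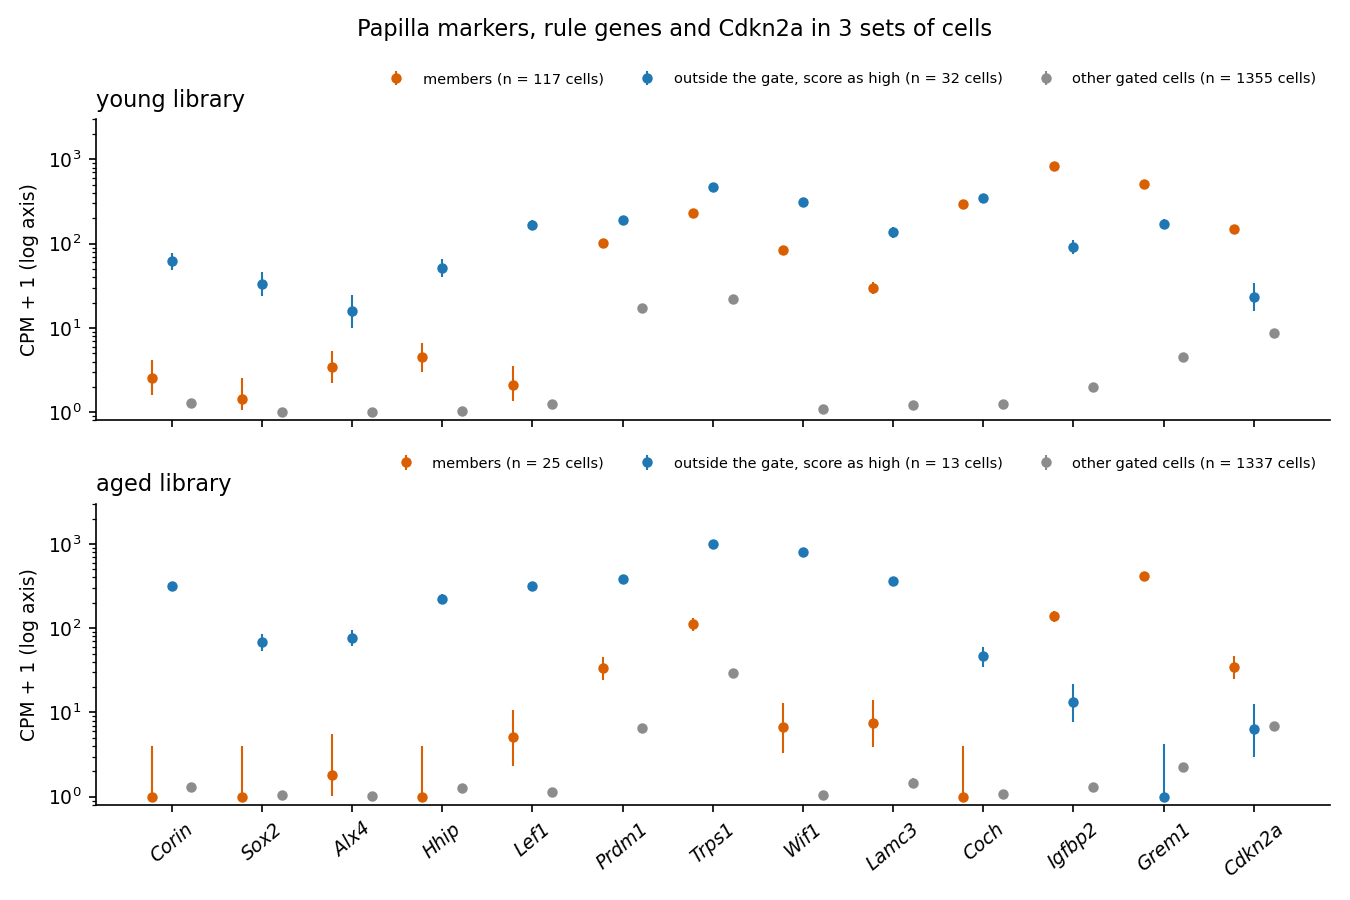
CPM + 1 on a log axis for 13 genes in members (orange), cells outside the gate with as high a score (blue) and other gated cells (grey), young above and aged below; lines are 95% Poisson intervals. Corin, Sox2, Alx4, Hhip and Lef1 are low in members and higher in the cells outside the gate in both libraries.

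Of 13370 genes with at least 50 UMIs in each library, 629 (4.7%) were at least 2-fold higher and 588 (4.4%) at least 2-fold lower in members than in other gated cells in both libraries. The median log2 ratio over all these genes was 0.24 in young and 0.06 in aged cells. Scaled to the median of gene ratios, which removes that shift, 463 genes were higher and 718 lower. The 629 genes were 40.9% of the genes higher in the young library and 48.0% of those higher in the aged library. With the top 10% of gated cells as members the counts were 345 higher and 240 lower, and of the 629 and 588 genes 517 and 284 also had the whole counting interval on the same side of 1 in each library. Throughout, a gene or list member written as higher or lower in members passed this 2-fold rule in both libraries. The shares of 4.7% higher and 4.4% lower over all genes stand beside each count of list members below.

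The genes named first rank highest by the smaller of their 2 ratios, young and aged. The UMI limit above counted members and other gated cells together. A gene scarce in other gated cells could thus pass through the member UMIs that also made it high. Gldn, for example, had 31 UMIs in aged members and 19 in aged other gated cells. A gene as scarce in other gated cells and not high in members could not enter the ranking. The part of this limit in the ranking was not tested. Wfdc12, encoding a secreted WAP-domain protein, stood at 217 CPM in young members against 0.718 CPM, and at 74.2 CPM in aged members against 0.403 CPM. It was in 31 young and 7 aged members, and 40% of the young UMIs were in 1 cell. Bcl11b, a zinc-finger transcription factor, was more widely spread, in 64 of 117 young members (45.8 against 1.71 CPM) and 12 of 25 aged members (40.4 against 1.2 CPM). Cpe, encoding a carboxypeptidase that processes peptide hormones, was in 95 young members (263 against 8.80 CPM) and 19 aged members (107 against 5.10 CPM).

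Other high genes are known from axons or matrix. Gldn, encoding gliomedin, stood at 40.4 CPM in young and 25.5 CPM in aged members, against 0.191 and 0.264 CPM. Stmn2, a tubulin-binding protein of growing axons, stood at 31.2 and 13.2 CPM against 0.574 and 0.654 CPM, and Nrn1, encoding neuritin, at 28.8 and 25.5 CPM against 1.45 and 0.751 CPM. Col7a1, the anchoring-fibril collagen, was in 74 young and 13 aged members, at 164 and 158 CPM against 8.32 and 9.44 CPM. Some aged levels rest on few cells, with 1 cell holding 67.2% of the aged Col7a1 UMIs, 68.8% for Stmn2 and 48.4% for Gldn. The remaining high genes chosen by size were Ppp1r14a, Zfp536, Otud7a, Tmem132c, Fcgr2b, Pla2g2e, Pla2g5 and Cdh4. In aged members 1 cell held from 16.9% (Tmem132c) to 54.2% (Pla2g2e) of the UMIs of these genes. Cdh4, the R-cadherin gene, stood at 112 CPM in young and 219 CPM in aged members, against 7.21 and 12.3 CPM. Of its aged UMIs 60.2% were in 3 cells.

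Among the lower genes Cxcl13, a chemokine for B cells, ranked first by the same measure. It gave 8 UMIs (1.75 CPM) in young and 1 UMI (0.824 CPM) in aged members, against 153 and 214 CPM in other gated cells. Ifit1, an interferon-induced gene, stood at 5.46 and 6.59 CPM against 57.1 and 287 CPM. Apart from Ifit1, with 25 and 8 UMIs, the 10 lowest rest on at most 17 UMIs in the members of either library. Sntg1, encoding a syntrophin, gave 6 UMIs in young members and none in aged members, against 45.3 and 50.4 CPM in other gated cells, and Krt23, a keratin gene, gave 1 and none against 47.1 and 43.6 CPM. Csmd1 gave 17 UMIs in 3 young members and none in aged members, against 50.4 and 28.2 CPM. Tek, encoding an angiopoietin receptor, gave 5 and 1 UMIs against 11.9 and 14.3 CPM. Myoc, Galnt6, Sox5os3 and Slc4a10 gave at most 1 UMI in the members of either library.

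Wnt target genes were higher in members as a list. Of 7 measured, 6 were at least 2-fold higher in both libraries and none lower, with median log2 ratios of 3.28 in young and 2.96 in aged cells. Axin2 stood at 24.9 against 1.88 CPM in young and 24.7 against 1.17 CPM in aged cells, in 39 and 10 members. Ccnd1, encoding cyclin D1, stood at 153 against 12.3 CPM and 82.4 against 10.6 CPM. Lgr5, an R-spondin receptor, stood at 36.9 against 4.40 CPM and 70.0 against 4.97 CPM, with 66% of the aged UMIs in 1 cell. The transcription factor gene Tcf7 and the feedback inhibitor genes Nkd1 and Nkd2 were also higher, with Nkd2 at 26.8 against 3.72 CPM and 20.6 against 2.34 CPM. The ubiquitin ligase gene Znrf3 was 26.2 against 20 CPM and 26.4 against 19.6 CPM.

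Of the 19 measured Wnt ligands and receptors, 2 were higher and 2 lower, and among 10 measured inhibitors and enhancers 2 were higher and 1 lower. Over all genes measured, 4.7% were higher and 4.4% lower. Apcdd1, a membrane inhibitor, was among the higher ones, at 62.8 against 2.97 CPM in young and 62.6 against 4.74 CPM in aged cells, in 66 and 14 members. Wnt5a, a ligand of the non-canonical pathway, stood at 67.6 against 11.2 CPM in young and 34.6 against 12 CPM in aged cells. Sfrp2, a secreted frizzled-related Wnt modulator, was lower, at 180 against 1216 CPM and 361 against 774 CPM. The ligand gene Wnt2 was lower too, at 6.11 against 30.6 CPM and 22.3 against 47.9 CPM. The inhibitor Dkk2 was 68.3 against 8.71 CPM in the young library and 16.5 against 18.4 CPM in the aged library.

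Hedgehog genes had a median log2 ratio of 1.06 in young and 0.56 in aged cells, with 3 of 8 measured higher in both libraries. Gli1 stood at 11.8 against 0.845 CPM in young and 6.59 against 0.821 CPM in aged cells, Gli2 at 24.4 against 3.51 CPM and 10.7 against 2.25 CPM, and the coreceptor Gas1 at 275 against 103 CPM and 179 against 76.8 CPM. Ptch1 was 42.3 against 9.01 CPM in young and 7.42 against 5.76 CPM in aged cells.

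Among BMP genes, 2 of 12 measured ligands and receptors were higher and 3 lower, none of 9 antagonists was higher or lower, and 2 of 8 target genes were higher. The shares over all genes were 4.7% higher and 4.4% lower. Bmp4 was higher at low level, 7.64 against 0.877 CPM in young and 6.59 against 1.35 CPM in aged cells, and Bmp6 lower, 3.27 against 23.3 CPM and 7.42 against 23.6 CPM. Id1, a direct BMP target, stood at 24.7 against 2.76 CPM and 19.0 against 4.31 CPM.

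Genes of the pathways in which Igfbp2 and Robo2 act were higher in part. In the IGF system 4 of 12 measured genes were higher and none lower: the carrier Igfbp5 (453 against 143 CPM young, 480 against 204 CPM aged), the protease Pappa that cleaves such carriers (139 against 34.9 and 192 against 76.7 CPM), its inhibitor Stc1 (38.6 against 2.84 and 28.0 against 4.83 CPM) and the receptor Igf1r (175 against 81.0 and 163 against 77.9 CPM). Of 6 measured Slit and Robo genes besides Robo2, 2 were higher, the receptor Robo1 (92.3 against 9.26 and 63.5 against 21.1 CPM) and the ligand Slit2 (353 against 94.1 and 120 against 31.0 CPM).

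The papilla list was mixed. Of 11 measured papilla genes 3 were higher and 1 lower, and the median log2 ratio was 0.95 in young and -0.61 in aged cells. The higher ones were Bmp4 and the transcription factors Trps1 (231.5 against 21.2 CPM young, 109.6 against 28.3 CPM aged) and Prdm1 (101 against 16.3 and 33.0 against 5.62 CPM). Of 8 measured sheath genes 2 were higher and none lower, with median log2 ratios of 1.61 in young and 0.25 in aged cells. Those 2 were the myosin light chain Myl9 (90.6 against 13.5 and 84.9 against 19.0 CPM) and its kinase Mylk (65.9 against 19.5 and 62.6 against 10.8 CPM). Of 5 measured papillary-fibroblast genes 3 were higher, Apcdd1, Axin2 and Col23a1, and none lower, with medians of 2.25 and 1.05.

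Markers of wound myofibroblasts, which contract and lay down matrix, were higher for 2 of 10 genes, Crabp1 (1091 against 51.5 CPM young, 564 against 50.1 CPM aged) and Prss35 (162 against 19.1 and 152 against 24.9 CPM). Of 4 measured cartilage and tendon genes 2 were higher, Tnmd (137 against 12.9 and 111 against 12.3 CPM) and Fmod. Adventitial-fibroblast genes went the other way, with 0 of 10 higher, 4 lower and median log2 ratios of -1.81 and -0.79. Pi16 stood at 80.5 against 327 CPM in young and 31.3 against 367 CPM in aged cells.

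Interferon-response genes were largely lower in members, and complement and secreted inflammatory genes in part. Of 21 interferon-response genes 12 were lower and 1, Irf1, was higher, at 163 against 44.7 CPM in young and 142 against 39.7 CPM in aged cells. The medians were -1.02 in young and -1.62 in aged cells. Of 11 measured complement genes 4 were lower and none higher, and C3 stood at 138 against 1219 CPM and 188 against 1017 CPM. Of 24 genes of the senescence-associated secretory phenotype, the cytokines and proteases released by senescent cells, 4 were lower and 1 higher. Among all genes measured 4.4% were lower and 4.7% higher. Il6 stood at 231 against 1351 CPM in young and 552 against 1462 CPM in aged cells, and the membrane protease Mmp14 was the higher one, at 1547 against 649 and 1097 against 528 CPM.

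Of 16 genes of the senescence list 4 were higher in members, the cell-cycle inhibitor genes Cdkn2a and Cdkn2b, the survival gene Bcl2 and the stress cytokine gene Gdf15. The list's medians were 0.76 in young and 0.53 in aged cells. Cdkn2a, which encodes the inhibitors p16 and Arf, gave 671 UMIs in 68 of 117 young members (146 CPM, 136 to 158) and 41 UMIs in 7 of 25 aged members (33.8 CPM, 24.2 to 45.8), against 7.77 and 5.91 CPM in other gated cells. In aged members 1 cell held 49% of those UMIs. Cdkn2b stood at 24.2 and 20.6 CPM against 3.75 and 3.76 CPM. Cdkn1a was 602 against 357 CPM in young and 280 against 322 CPM in aged cells. Bcl2 stood at 15.1 against 4.62 CPM and 13.2 against 5.83 CPM, and Gdf15 at 12 against 5.45 CPM and 37.9 against 3.98 CPM, with 73.9% of the aged UMIs in 1 cell. Of 22 proliferation genes 4 were higher and none lower, each with at least 26.6% of its young UMIs in 1 cell.

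**Figure D4:**
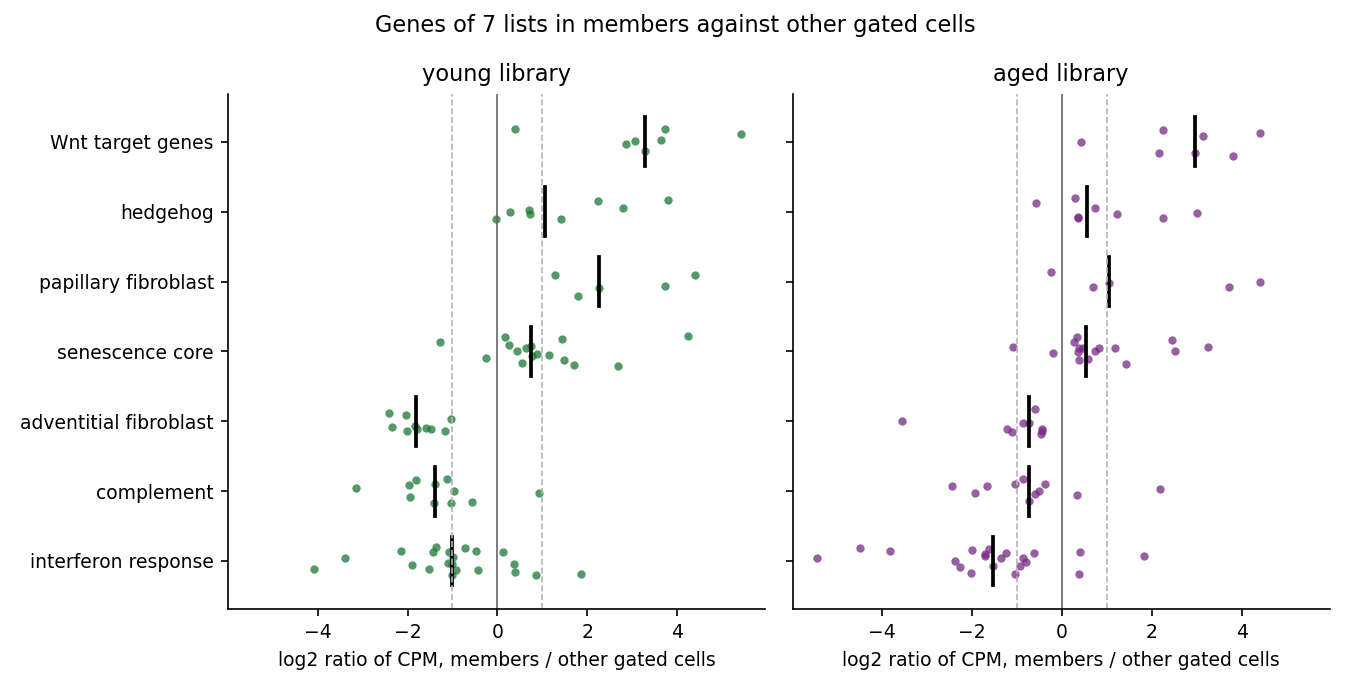
Log2 ratio of CPM in members over other gated cells (x axis) for the measured genes of 7 lists (points) and their median (black bar), young left and aged right; dashed lines mark 2-fold. Wnt target genes lie to the right in both panels, with medians of 3.28 and 2.96, and interferon genes mostly to the left.

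Some marker lists of other cell types had higher sums in young members than in young other gated cells. The 10 myeloid genes summed to 593 CPM against 234 CPM in the young library and to 96.4 against 99.9 CPM in the aged library, with S100a8 and S100a9 at 225 and 293 CPM in young members. The 8 endothelial genes summed to 65.0 CPM in young members against 36.3 CPM, and to 19.8 against 29.4 CPM in the aged library. Most of the young endothelial sum was Flt1, and Tie1 and Emcn had no UMI in any member. The 10 keratinocyte genes summed to 16.6 against 9.63 CPM in young and 11.5 against 8.25 CPM in aged cells, with 6 and 8 of them at 0 in members. The 5 melanocyte genes summed to 17.0 and 11.5 CPM, against 8.02 and 1.96 CPM in other gated cells, and 1 of them, Mlana, was higher in members. In young and aged members the sums were 5.89 and 7.42 CPM for 9 Schwann-cell genes, 2.18 and 0.824 CPM for 6 adipocyte genes and 1.96 and 1.65 CPM for 6 skeletal muscle genes.

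Of 12 genes induced by tissue dissociation, 3 were higher in members, Jun, Hspa1a and Hspa1b. Jun stood at 1357 against 627 CPM in young and 1462 against 349 CPM in aged cells. The part of these markers in the results was not tested.

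Within members, aged and young were compared over 8559 genes with at least 50 UMIs over the members of both libraries together. Young members held 4582869 UMIs and aged members 1213443. A gene found in young members alone thus passed at a lower CPM than a gene found in aged members alone. The part of this limit in the counts below was not tested. A gene was called where the whole interval of the aged/young ratio lay beyond 1.5-fold and it passed a 1-cell rule. Under that rule no cell held 20% or more of its UMIs in a library whose members had at least 10. A gene with fewer UMIs in a library was exempt there. The call gave 33 genes (0.386%) higher and 89 (1.04%) lower in aged members. A rule of 1.5-fold alone gave 732 (8.55%) higher and 1155 (13.5%) lower. The 25 aged members limit this comparison, and 3436 genes (40.1%) were set aside because 1 cell held that large a share. In other gated cells a ratio of 1.5 either way was met by 4.03% of the same genes higher and 3.39% lower in the aged library.

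Genes higher in aged members included surface and matrix proteins of fibroblasts. Fap, a protease of activated fibroblasts, stood at 12.4 CPM in young and 51.1 CPM in aged members. The ratio was 4.11 (2.82 to 5.99), and other gated cells held 62.5 and 91.4 CPM. Clec3b, encoding tetranectin, went from 70.7 to 263 CPM (ratio 3.72, 3.18 to 4.35), Col14a1 from 283 to 816 CPM (2.89, 2.66 to 3.14) and Fndc1 from 142 to 401 CPM (2.82, 2.5 to 3.18). Cthrc1, a secreted protein of repair fibroblasts, went from 470 to 1169 CPM (2.49, 2.33 to 2.66), and the zinc-finger gene Zfp462 from 54.8 to 151 CPM (2.75, 2.26 to 3.34). Ofd1, Aig1, Kctd17 and Mirg complete the 10 highest. Of the aged member UMIs of these 10 genes, 3 cells held from 31.7% (Zfp462) to 53.2% (Fap), a spread between cells that the intervals do not cover. For Fap, Clec3b, Col14a1 and Cthrc1 the aged members were nearer than the young members to the level of other gated cells of their library. Among the top 2.5% of gated cells, where 7 aged members remain, Col14a1 and Cthrc1 were the lower in aged members, with ratios of 0.0294 and 0.571.

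Several of these ratios were smaller with other member sets. Fap had 1.77 (1.20 to 2.55) with the thinned score, 1.79 (1.02 to 3.03) with Col11a1 left out of the score and 1.89 with the top 10% of gated cells. With the top 10%, Clec3b had 1.73, Fndc1 1.48 and Col14a1 1.47, and with Col11a1 left out Clec3b had 2.09 and Col14a1 1.74. Zfp462 ran the other way, with 4.15 among the top 2.5%.

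Genes lower in aged members included genes that stood above the other gated cells in young members. Cd200, a membrane glycoprotein that restrains myeloid cells, went from 26.8 to 1.65 CPM (ratio 0.0614, 0.00735 to 0.227), with 3.36 and 5.79 CPM in other gated cells. Fgf10, a growth factor gene made by the papilla among other mesenchyme, gave 63 UMIs in 24 young members and 1 UMI in aged members (13.7 and 0.824 CPM). Batf, a transcription factor gene of the AP-1 family, gave 54 UMIs in 26 young members and 1 in aged members, and Ptprf, a receptor phosphatase gene, 55 in 30 and 1. Fabp4, encoding a lipid carrier, gave 133 UMIs in 19 young members and none in aged members. It was 11.7-fold lower at a bound of 3 UMIs, and the interval of the ratio reaches 0.106. Parvb, Garin1a, Dbndd2, Pcdhb9 and Serpina3g complete the 10 lowest. Each of these 10 had at most 2 UMIs in aged members.

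These ratios depended on which cells were members. Fabp4 and Garin1a were the higher in aged members with the top 10% of gated cells (ratios 1.19 and 1.09) and with the top 5% of each library (1.86 and 1.04). With no lower limit on collagen Fgf10 and Ptprf were the higher, with ratios of 1.54 and 1.27, and Cd200 had 0.879 (0.655 to 1.17). Cd200 had 0.659 with a collagen limit of 0.5%, Batf 0.579 with the top 10% and Parvb 0.801 with the top 5% of each library.

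Some genes of the pathway lists were also lower in aged members. Ptch1 went from 42.3 to 7.42 CPM and Ccnd1 from 153 to 82.4 CPM. The aged level of Ptch1 rests on 9 UMIs, few enough to be exempt from the 1-cell rule in that library. With no lower limit on collagen Ptch1 was the higher in aged cells, at 50.6 and 128 CPM (ratio 2.53). Slit2 went from 353 to 120 CPM, and Col18a1, a basement membrane collagen, from 154 to 41.2 CPM. Rspo3, an enhancer of Wnt signalling, gave 84 UMIs in 29 young members and none in aged members, and was not called because 1 young cell held 20.2% of them.

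Lists of other fibroblast states differed between aged and young members by the 1.5-fold rule. Of 9 measured adventitial genes 6 were higher and 1 lower in aged members, with a median log2 ratio of 0.85 against 0.05 in other gated cells. The lower one was Pi16, at 80.5 CPM in young and 31.3 CPM in aged members. Of 6 papillary genes 4 were lower and none higher (median -1.11 against 0.19), of 7 hedgehog genes 4 were lower and none higher (-0.62 against -0.04), and of 8 sheath genes 5 were lower and 1 higher (-0.97 against -0.04). The sheath median was 0.083 with Col11a1 left out of the score, the hedgehog median 0.29 with a collagen limit of 0.5%, and without that limit the hedgehog and papillary medians were 0.42 and 0.29. Of 13 interferon genes 6 were higher and none lower (0.55 against 0.99), and the median was -0.24 among the top 2.5% of gated cells. The median over all genes compared was -0.04 in members and 0.10 in other gated cells. By the 1.5-fold rule, which sets no limit on the share of 1 cell, 8.55% of all these genes were higher and 13.5% lower in aged members.

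Cdkn2a was 0.231 times as high in aged as in young members (0.164 to 0.316) and was not among the genes called, because of the 1 aged cell with 49% of its UMIs. The ratio was 0.607 in the top 2.5%, where 7 aged cells remained, and 0.0585 without the 3 cells with most UMIs of the gene in each library. After thinning to 5000 UMIs it was in 31.8% of young and 12.5% of aged members, against 2.72% and 2.07% of other gated cells. Cdkn1a was called lower, 602 against 280 CPM in young and aged members, a difference of -1.10 in log2 and a ratio of 0.465 (0.414 to 0.521). That ratio was 0.746 (0.677 to 0.821) with Grem1 left out of the score, 0.738 (0.668 to 0.815) with Col11a1 left out and 0.729 with no lower limit on collagen, each short of the call.

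Within cluster 12 alone, with 75 young and 12 aged members, 15 genes were called higher and 111 lower in aged members. Of the 33 higher genes 1 was among them, and of the 89 lower genes 17. Clec3b, Fndc1 and Zfp462 had ratios of 3.12, 2.30 and 3.53 there, with whole intervals above 1.5. They failed the 1-cell rule in that cluster and were not called. Fap had 2.72 (0.62 to 9.45), while Col14a1 had 1.44, Cthrc1 1.07 and Aig1 0.987. Cdkn2a stood at 245 CPM in young and 83.1 CPM in aged members of that cluster, a ratio of 0.339. The shares of members in each cluster differ between the libraries, as given above, and their part in the other differences was not tested.

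**Figure D5:**
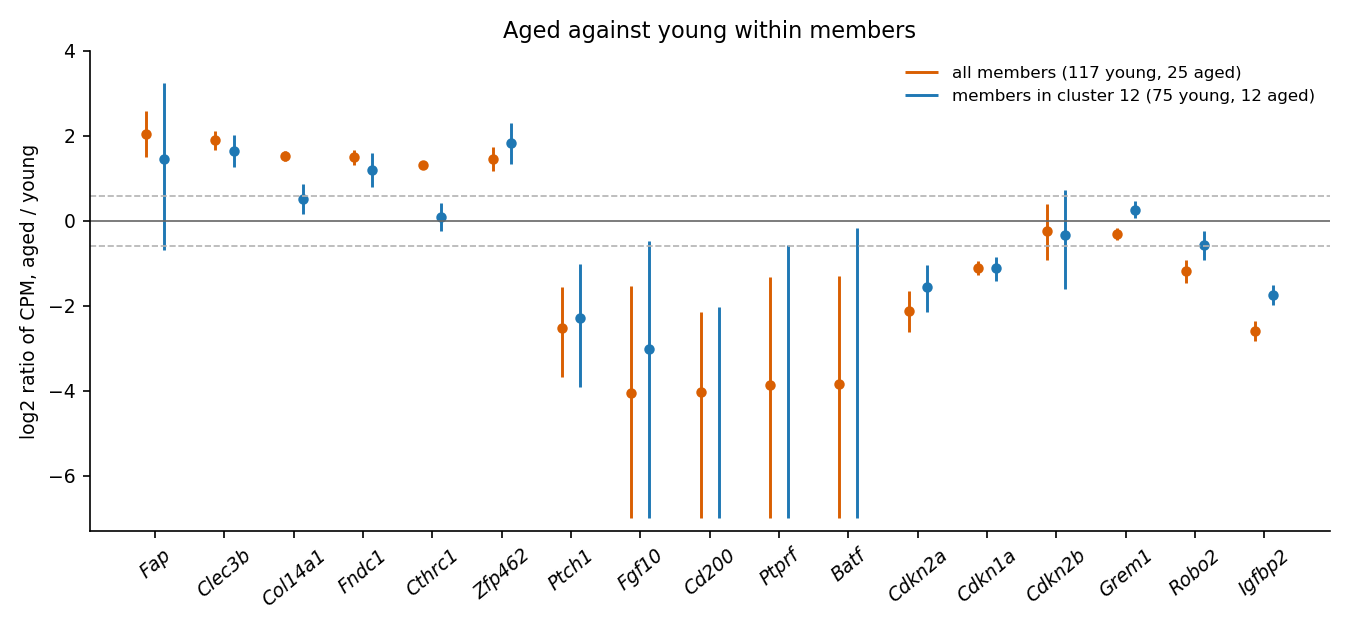
Log2 ratio of CPM in aged over young members (y axis) for 17 genes, for all members (orange) and for members in cluster 12 (blue); lines are 95% intervals of counting error, those reaching the lower edge run on below it, a missing point has no aged UMI, and dashed lines mark 1.5-fold. Clec3b and Zfp462 lie above 1.5-fold in both sets, though neither passed the 1-cell rule in cluster 12, and Cthrc1 lies near 0 in cluster 12.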

How the data were processed

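Single cells of 2 wound libraries, 1 young and 1 aged, were read from the UMI count matrices the authors deposited, with 33696 features. The authors' counts came from Cell Ranger 8.0.1 per the file headers, and from Cell Ranger 9.0 with STAR and build GRCm38 (mm10), with Seurat 4 downstream, per the submitters' processing notes. Of the features, 1735 were not in the GENCODE M21 table used for names, and 26 symbols were repeated (the first row was used). The filters, gate and score are given with the results. No doublet caller was run, and an alternative left out the deepest 5% of gated cells.

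UMIs were summed over a set of cells within a library and divided by the set's total (CPM). Ratios carry 95% counting intervals, levels Poisson and shares Clopper-Pearson ones. PCR duplicates are collapsed by UMIs, and intervals cover counting error only. A sum of 0 was bounded at 3 counts. Members were set against other gated cells over genes with at least 50 UMIs in each library, and aged against young members over genes with at least 50 UMIs in members. Shares of cells were compared after thinning to 5000 UMIs. Cells with at least 1% myeloid UMIs and under 0.1% collagen UMIs gave the background. Gated cells were clustered without the rule genes (2000 variable genes, 30 principal components, 15 neighbours, Leiden at resolution 1). The calls between sets and the interval part of the age calls were tested on simulated counts. The score, the thinning and the choice of the top cells were tested on small made-up examples. The 1-cell rule, the clustering, the search for near-identical barcodes, the list medians and the motif counts were not tested in this way.

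The members and the gene lists were chosen with earlier results of these data known. Named genes were the 15 highest and 10 lowest by the smaller of both libraries' log2 ratios, the 10 highest and 10 lowest by age, and the extremes of each list. They leave out rule, mitochondrial, ribosomal, haemoglobin, immunoglobulin, sex-linked inactivation, Y-linked and unnamed genes. Genes named outside that rule were chosen after their values were seen. Python 3.11.15, numpy 2.4.6, scipy 1.17.1, pandas 2.3.3, scikit-learn 1.9.0, igraph 0.11.9, leidenalg 0.10.2 and matplotlib 3.10.9 were used. Results for some items are not reported here.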

Additional observations from a re-analysis of the deposited data

Results flagged for a closer look

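Kept cells outside the fibroblast gate, which count as members only in the alternative with no lower limit on collagen, held the papilla markers that were near 0 in members. In the 32 young and 13 aged cells that scored as high as a member, Corin stood at 61.2 and 318 CPM, Sox2 at 32.7 and 67.3 CPM, Alx4 at 15.1 and 75.3 CPM, Hhip at 51.1 and 222 CPM, and Lef1 at 168 and 318 CPM. The aged level was the higher for each of these 5 genes. The makeup of the cells differed too, with Corin in 7 of the 32 young and 10 of the 13 aged cells. Counted once, 29 young and 9 aged cells remained, 6 and 6 of them with Corin, while the levels above count every barcode. The difference was not tested.

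In 3 lists the median log2 ratio of members over other gated cells had opposite signs in the libraries. The dermal papilla list gave 0.95 in young and -0.61 in aged cells, the list of Wnt inhibitors and enhancers 0.31 and -0.58, and the pericyte and smooth muscle list -0.55 and 0.32. With 1 library per age these differences were not tested.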

How the results depend on the processing

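No paired analysis was possible because each age has 1 library and no result comes from a test. The aged/young ratio of the member share stayed below 1, with 0.118 for the top 2.5% of gated cells and 0.426 for the top 10%; the top 5% within each library, which fixes equal shares, gave 0.993. For the top 2.5%, the genes lower in members numbered 1189, the genes higher in aged members 0, and the Cdkn2a ratio was 0.607. For the top 10%, 345 genes were higher and 240 lower in members, and 143 higher and 181 lower in aged members. For the top 5% within each library, 359 genes were lower in members, 233 higher and 382 lower in aged members, and the Cdkn2a ratio was 0.124.

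The genes higher in aged members numbered 18 with a thinned score, 50, 51 and 52 with Igfbp2, Grem1 or Robo2 left out of the score, 21 without the deepest cells and 82 by the mean over cells. With Col11a1 left out there were 20 higher and 57 lower, a Cdkn2a ratio of 0.476 and a sheath median of 0.083. A minimum of 20 UMIs gave 982 genes lower in members, and a minimum of 200 gave 376 higher and 324 lower in members and 37 lower in aged members. Without the 3 cells in each library with most of its UMIs, the Cdkn2a ratio was 0.0585.

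The remaining alternatives were chosen after seeing the data. With the counting interval on the same side of 1, 284 genes were lower in members. Members of cluster 12 alone gave 1385 genes lower in members, 15 higher in aged members, a Cdkn2a ratio of 0.339 and an Aig1 ratio of 0.987. Members with at least 3 rule genes gave 0 genes higher in aged members and a Cdkn2a ratio of 0.119. With no lower limit on collagen, 1064 genes were higher in members and 164 higher in aged members, the ratios of Fgf10 and Ptprf were 1.54 and 1.27, and the papillary and hedgehog medians 0.29 and 0.42.

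Other planned values of at least 1.5-fold that changed direction were Col14a1 at 0.0294 and Cthrc1 at 0.571 (top 2.5%), Garin1a at 1.09 and Fabp4 at 1.19 (top 10%), Garin1a at 1.04 and Fabp4 at 1.86 (top 5% within each library), and the hedgehog median at 0.29 (collagen limit 0.5%). Smaller values turned too: among the top 2.5% the interferon, proliferation and collagen medians were -0.24, -1.74 and -0.46 (0.55, 0.28 and 0.27 for the chosen set) and the Cdkn2b ratio 1.43 (0.851), without Grem1 the proliferation median was -0.55, and with a collagen limit of 0.5% the papilla median was 0.59 (-0.53). The complement, senescence, Wnt target, papilla and proliferation medians also crossed 0 under other settings while moving by less than 1.5-fold. With no lower limit on collagen the Wnt target median was 0.29 (-0.38) and the papilla median 2.28. No ratio could be given for 8 gene values with no UMI in 1 library. The cause of these changes was not tested. The number of aged members, 25, limits every comparison of ages.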
